A study of Mus musculus with 27 samples.

Results

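The genes Rag1, Cd44, Ccdc141, Rsph1, Slc37a1, Sdc2, Dennd4a, Cldn11, Myo10 and Cryba2 are 10 of the 19938 genes measured in pancreatic islets, the small groups of hormone-making cells that include the insulin-making beta cells. They were chosen because their array values in islets of mice labelled NOD.Rag1-/- (Rag1ko) differed from those of both other genotypes, NOD and NOD.Batf3-/- (Batf3ko). That choice used the Rag1ko differences themselves, so these are given as a description without a test, and tests are kept for contrasts that the choice did not name. All mice were untreated females of NOD/ShiLt background, prone to autoimmune diabetes, and each genotype had 3 mice at 6 weeks and 6 mice at 8 weeks. NOD mice carry neither deletion. The sources used here do not say how each allele was made or from which strain it was bred into NOD. Values are log2 signals of 1 probe set per gene, the one with the highest mean, and the number of arrays limits the precision.

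Rag1 is one of the 2 proteins of the recombinase that cuts and joins antigen receptor gene segments, and without it no mature T or B lymphocytes form. Batf3 is a transcription factor needed by the dendritic cells that show antigen to CD8 T cells. In NOD mice lymphocytes and macrophages enter the islets before diabetes begins, and mice without Rag1 are known to escape that lymphocytic attack. The other genes of the set code for proteins of unlike function, among them a receptor for hyaluronan (Cd44), a heparan sulfate proteoglycan (Sdc2), a part of motile cilia (Rsph1) and a sugar phosphate transporter (Slc37a1).

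The genes lie on 6 chromosomes. Rag1, Cd44 and Ccdc141 lie on chromosome 2, where Cd44 is 9 measured genes and Ccdc141 329 measured genes away from Rag1. Rsph1 and Slc37a1 are direct neighbours on chromosome 17, at places 345 and 346 of its 936 measured genes. Sdc2 and Myo10 lie on chromosome 15, at places 86 and 66 of its 748 measured genes. Dennd4a lies on chromosome 9, Cldn11 on 3 and Cryba2 on 1.

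RefSeq promoter windows (GRCm38.p6, 250 bases ending at an annotated start) were matched for 8 of the 10 genes, and there is none for Rsph1 and Sdc2. The windows shown are those of Rag1 itself, of Cd44 near it on the same chromosome and of the strongly raised Slc37a1 and Dennd4a, so that genes that moved together or against each other can be compared. They are chr2:101649533-101649782 on the minus strand for Rag1, chr2:102901666-102901915 on the minus strand for Cd44, chr17:31295974-31296223 on the plus strand for Slc37a1 and chr9:64810761-64811010 on the plus strand for Dennd4a. Capitals mark a match to a searched motif on either strand.
Rag1: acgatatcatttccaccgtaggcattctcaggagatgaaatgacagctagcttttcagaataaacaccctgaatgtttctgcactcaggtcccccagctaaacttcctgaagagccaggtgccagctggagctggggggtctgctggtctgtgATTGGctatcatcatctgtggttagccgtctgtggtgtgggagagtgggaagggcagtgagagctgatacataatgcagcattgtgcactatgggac
Cd44: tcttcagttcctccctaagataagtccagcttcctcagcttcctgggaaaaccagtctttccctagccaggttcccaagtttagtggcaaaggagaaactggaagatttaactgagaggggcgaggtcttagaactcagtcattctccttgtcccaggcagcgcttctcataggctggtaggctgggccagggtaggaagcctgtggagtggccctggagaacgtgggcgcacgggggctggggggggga
Slc37a1: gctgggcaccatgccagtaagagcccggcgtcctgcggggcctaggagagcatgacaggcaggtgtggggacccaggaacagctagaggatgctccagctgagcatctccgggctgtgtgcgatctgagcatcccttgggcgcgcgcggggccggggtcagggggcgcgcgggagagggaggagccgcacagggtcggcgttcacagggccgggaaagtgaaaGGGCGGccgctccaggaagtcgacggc
Dennd4a: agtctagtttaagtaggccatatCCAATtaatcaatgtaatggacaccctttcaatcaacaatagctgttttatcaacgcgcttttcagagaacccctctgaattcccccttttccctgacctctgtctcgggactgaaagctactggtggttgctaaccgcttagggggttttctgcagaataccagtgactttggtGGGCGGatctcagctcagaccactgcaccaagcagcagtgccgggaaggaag

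All windows were searched on both strands for 6 short motifs. They were GTTGCC, part of the X box bound by RFX factors, then GGGCGG, the core of the box bound by Sp factors (GC box here), then CCAAT, which binds the factor NF-Y, then TATAAA, the site of the general promoter machinery, then CACGTG, an E box bound by helix-loop-helix factors, and last TGACG, part of the cAMP response element. None of them contains another, and overlapping matches of one motif were counted. No motif was found in all of the printed windows. Rag1 held 1 CCAAT, read on the other strand as ATTGG, Slc37a1 held 1 GC box, Dennd4a held 1 of each, and Cd44 held none of the motifs. Among 32851 mouse promoter windows, 32.7% held a GC box and 33.8% a CCAAT, so both are common. The GC content was 69.6% for Slc37a1, 56.4% for Cd44, 50.8% for Rag1 and 48.4% for Dennd4a, with a median of 52.4% over all windows.

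**Figure D1:**
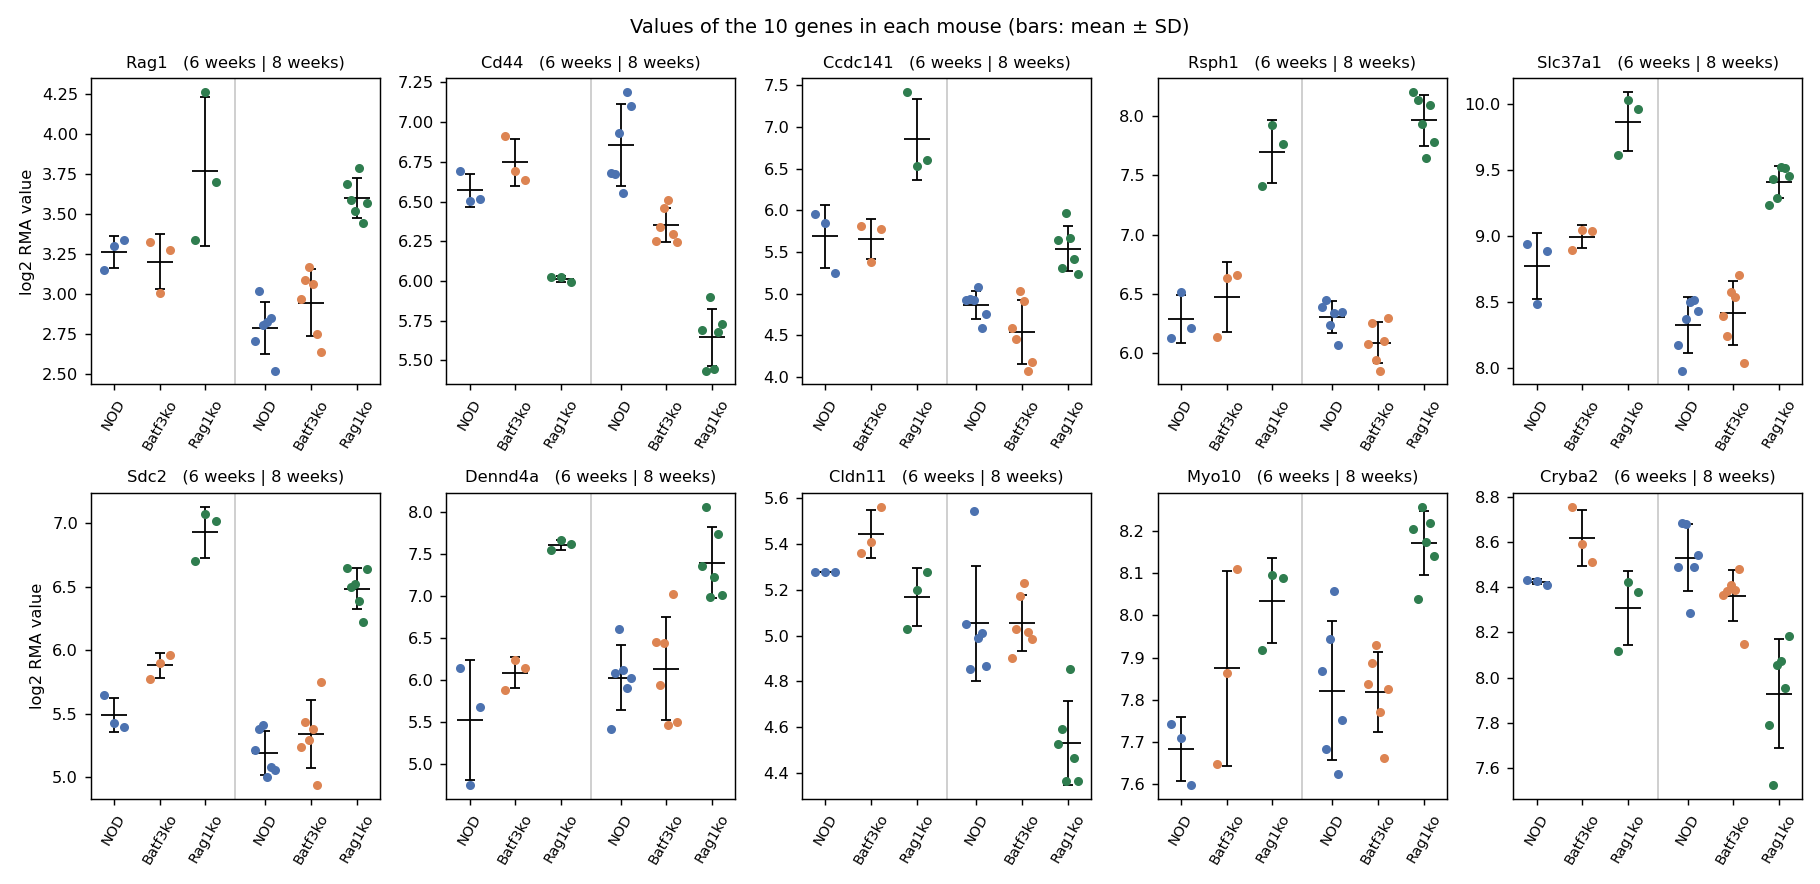
Log2 values of the 10 genes, 1 point per mouse, in NOD, Batf3ko and Rag1ko islets at 6 weeks (left of the grey line, 3 mice each) and 8 weeks (right, 6 mice each), with bars for the mean ± SD. Rag1ko points sit above both other genotypes for Rsph1, Slc37a1, Sdc2 and Ccdc141 and below them for Cd44 at both ages. Those of Rag1, Dennd4a, Cldn11, Myo10 and Cryba2 meet or overlap another genotype at one comparison or more. The vertical axes differ between panels and do not start at 0.

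In Rag1ko islets 7 of the 10 genes were higher and 3 (Cd44, Cldn11, Cryba2) lower than in both other genotypes, and this direction was the same for each gene at 6 and at 8 weeks. At 6 weeks the differences of Cldn11 (-0.11 ± 0.14) and Cryba2 (-0.12 ± 0.13) from NOD were smaller than their SE. At 8 weeks the median size of the difference over the 10 genes was 0.95 log2 against NOD and 0.85 against Batf3ko, beside 0.11 and 0.09 over all genes. At 8 weeks 4.07% of all genes passed the test against NOD, 0.507% against Batf3ko and 0.15% (30 genes) both in one direction. All 10 are among those 30, and since the choice used these differences nothing more is read from it. Rag1ko mice did not overlap with any mouse of either other genotype for 6 of the 10 at 8 weeks, where this held for 0.15% of all genes, and for 6 of the 10 at 6 weeks, where it held for 5.91%. It held at both ages for Cd44, Ccdc141, Rsph1, Slc37a1 and Sdc2, and for 0.0401% of all genes (8 genes). For Ccdc141 it held at 8 weeks only in the probe set used. Both differences share the Rag1ko arrays.

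Rag1 itself gave a low signal. At 8 weeks the 6 NOD mice ran from 2.52 (median 2.82) to 3.02, the 6 Batf3ko mice from 2.63 (median 3.02) to 3.17 and the 6 Rag1ko mice from 3.45 (median 3.58) to 3.79. Every Rag1ko mouse was thus above every other mouse of that age, in the opposite direction to a loss of transcript. The log2 difference was 0.81 ± 0.12 (SE) from NOD and 0.66 ± 0.12 from Batf3ko. At 6 weeks NOD mice gave 3.15, 3.30 and 3.34, Batf3ko mice 3.33, 3.00 and 3.27, and Rag1ko mice 3.34, 4.26 and 3.70. One Rag1ko mouse of 6 weeks stood at the level of the highest NOD mouse. Without Rag1ko mouse 2 the 6-week difference from NOD was 0.26 in place of 0.51, and without mouse 1 it was 0.72. Against Batf3ko it was 0.57, which became 0.32 and 0.78. The probe set stayed below the level of 5.1 (the median probe set value) used as a filter on low values, which the other 9 genes passed. Passing asked for a value above that level in at least 3 arrays. At 8 weeks all NOD and Batf3ko values of Ccdc141 and all Rag1ko values of Cldn11 also lay below it. The sources used here do not say whether the Rag1 probe set reads the altered part of the gene, so its value does not check the genotype.

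Cd44 is the surface receptor for hyaluronan, carried by activated T cells, macrophages and many tissue cells. At 8 weeks NOD mice ran from 6.55 (median 6.81) to 7.19, Batf3ko mice from 6.25 (median 6.32) to 6.51 and Rag1ko mice from 5.44 (median 5.69) to 5.90. The genotypes formed 3 separate steps with no overlap, NOD highest and Rag1ko lowest. Rag1ko islets lay 1.21 ± 0.10 below NOD, a fall of 2.31-fold, and the difference from Batf3ko was -0.70 ± 0.10 (1.63-fold). At 6 weeks NOD mice gave 6.69, 6.50 and 6.52, Batf3ko mice 6.91, 6.69 and 6.64, and Rag1ko mice 6.03, 6.02 and 5.99. NOD and Batf3ko overlapped there and Rag1ko remained apart below both, with a difference of -0.56 ± 0.14 from NOD and -0.73 ± 0.14 from Batf3ko.

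Sdc2 codes for syndecan-2, a membrane proteoglycan whose heparan sulfate chains bind growth factors and matrix. NOD mice of 8 weeks ran from 5.001 (median 5.15) to 5.42, Batf3ko mice from 4.94 (median 5.34) to 5.75 and Rag1ko mice from 6.22 (median 6.51) to 6.65. Rag1ko mice were above all others, by 1.30 ± 0.11 from NOD (2.45-fold) and 1.15 ± 0.11 from Batf3ko. The 6-week NOD mice gave 5.65, 5.43 and 5.40, Batf3ko mice 5.77, 5.90 and 5.97, and Rag1ko mice 6.70, 7.07 and 7.02. The Rag1ko differences were 1.44 ± 0.15 and 1.05 ± 0.15, again without overlap.

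Rsph1 codes for a head protein of the radial spokes, which steer the beat of motile cilia. It had the greatest of the 8-week differences that held against both genotypes. NOD mice ran from 6.07 (median 6.34) to 6.45, Batf3ko mice from 5.85 (median 6.09) to 6.30 and Rag1ko mice from 7.64 (median 8.01) to 8.20. The lowest Rag1ko mouse stood 1.20 log2 units above the highest NOD mouse and 1.34 above the highest Batf3ko mouse. The mean differences were 1.66 ± 0.11 (3.15-fold) and 1.88 ± 0.11 (3.67-fold). At 6 weeks NOD mice gave 6.13, 6.51 and 6.22, Batf3ko mice 6.14, 6.63 and 6.66, and Rag1ko mice 7.41, 7.93 and 7.76. Rag1ko was higher by 1.41 ± 0.16 and 1.22 ± 0.16 there, with no mouse in the range of another genotype.

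Slc37a1, its neighbour, codes for a glucose 6-phosphate and phosphate exchanger of the endoplasmic reticulum membrane. Its 8-week values ran in NOD mice from 7.98 (median 8.40) to 8.51, Batf3ko mice from 8.04 (median 8.47) to 8.71 and Rag1ko mice from 9.24 (median 9.44) to 9.53. The difference was 1.08 ± 0.11 from NOD (2.12-fold) and 0.99 ± 0.11 from Batf3ko (1.99-fold). The 6-week NOD mice gave 8.94, 8.48 and 8.89, Batf3ko mice 8.90, 9.05 and 9.04, and Rag1ko mice 9.61, 10.03 and 9.96. Rag1ko mice were above every other mouse at both ages, by 1.10 ± 0.16 and 0.87 ± 0.16 at 6 weeks.

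Dennd4a is a DENN domain protein, one of the exchange factors that switch on Rab proteins of membrane traffic. NOD mice of 8 weeks ran from 5.41 (median 6.05) to 6.61, Batf3ko mice from 5.46 (median 6.19) to 7.02 and Rag1ko mice from 6.98 (median 7.29) to 8.06. One Batf3ko mouse at 7.02 lay just above the 2 lowest Rag1ko mice at 6.98 and 7.01, and apart from it the groups were separate. The differences were 1.37 ± 0.25 from NOD (2.59-fold) and 1.26 ± 0.25 from Batf3ko. In the younger mice NOD gave 6.14, 4.74 and 5.67, Batf3ko mice 5.87, 6.24 and 6.14, and Rag1ko mice 7.55, 7.67 and 7.63. Rag1ko mice lay within a narrow band above both other genotypes, and the difference of 2.10 ± 0.35 from NOD was the greatest of the 10 at that age. It was 1.53 ± 0.35 from Batf3ko.

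Ccdc141 codes for a coiled-coil protein known from neuronal migration. At 8 weeks NOD mice ran from 4.59 (median 4.92) to 5.08, Batf3ko mice from 4.08 (median 4.52) to 5.04 and Rag1ko mice from 5.23 (median 5.53) to 5.96. The Rag1ko range began 0.16 log2 units above the highest NOD mouse, so the groups were close but apart. The differences were 0.67 ± 0.17 from NOD and 0.99 ± 0.17 from Batf3ko. At 6 weeks NOD mice gave 5.96, 5.85 and 5.25, Batf3ko mice 5.82, 5.38 and 5.78, and Rag1ko mice 7.41, 6.53 and 6.60. The 6-week differences were 1.16 ± 0.24 and 1.19 ± 0.24, larger than at 8 weeks for this probe set, while over the mean of its probe sets the difference from NOD was 0.80 at 6 and 0.73 at 8 weeks. One Rag1ko mouse at 7.41 stood well above the other two.

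Several probe sets read 2 of these genes and gave one direction. All 5 probe sets of Ccdc141 were higher in Rag1ko islets, by 0.43 to 0.97 against NOD and by 0.52 to 1.18 against Batf3ko at 8 weeks. All 9 of Dennd4a were higher too, by 1.004 to 1.59 and by 0.85 to 1.34. At 6 weeks the ranges were 0.35 to 1.16 and 0.89 to 1.19 for Ccdc141 and 1.003 to 2.42 and 0.80 to 1.68 for Dennd4a. Separation of the mice was less uniform. At 8 weeks Rag1ko did not overlap with NOD in 2 of the 5 Ccdc141 probe sets and with Batf3ko in 1, the one used. For Dennd4a this was so in 7 and 4 of the 9. At 6 weeks it was so in 4 and 5 for Ccdc141 and in all 9 for Dennd4a. Probe sets of one gene are read on the same arrays and are not replicates. The other 8 genes had a single probe set each.

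**Figure D2:**
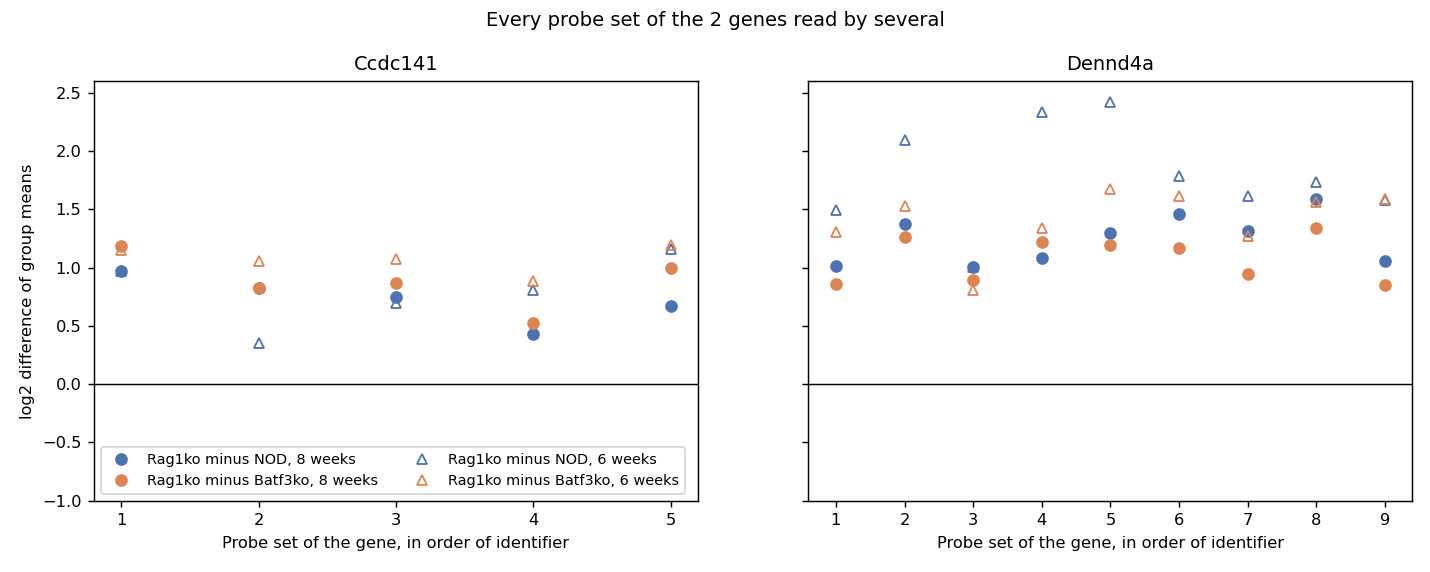
Log2 difference of group means (vertical axis) for each of the 5 probe sets of Ccdc141 and the 9 of Dennd4a (horizontal axis, in order of identifier), for Rag1ko minus NOD (blue) and Rag1ko minus Batf3ko (orange) at 8 weeks (filled circles, 6 mice a group) and 6 weeks (open triangles, 3 mice a group). Every symbol lies above 0.

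Cldn11, Myo10 and Cryba2 had the smallest differences of the set and overlapped with one genotype or the other. Cldn11 is a claudin of the tight junctions of myelin and testis. At 8 weeks NOD mice ran from 4.85 (median 5.0) to 5.54, Batf3ko mice from 4.90 (median 5.02) to 5.23 and Rag1ko mice from 4.37 (median 4.50) to 4.86. The highest Rag1ko mouse met the lowest NOD mouse, and the differences were -0.52 ± 0.10 from NOD and -0.53 ± 0.10 from Batf3ko. At 6 weeks the 3 NOD mice shared one value, 5.28, Batf3ko mice gave 5.36, 5.41 and 5.56, and Rag1ko mice 5.03, 5.20 and 5.28. The difference there was -0.11 ± 0.14 from NOD and -0.28 ± 0.14 from Batf3ko, the former smaller than its error. The highest Rag1ko mouse had the same value as the NOD mice, whose SD was 0. Why these arrays shared a value was not tested, so these differences call for caution.

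Myo10 is an unconventional myosin that carries cargo to the tips of filopodia. Among 8-week mice NOD ran from 7.62 (median 7.81) to 8.06, Batf3ko mice from 7.66 (median 7.83) to 7.93 and Rag1ko mice from 8.04 (median 8.19) to 8.26. One NOD mouse reached into the Rag1ko range. The difference was 0.35 ± 0.08 from NOD and 0.36 ± 0.08 from Batf3ko, or 1.28-fold each. In the younger mice NOD gave 7.74, 7.71 and 7.60, Batf3ko mice 7.65, 7.86 and 8.11, and Rag1ko mice 7.92, 8.10 and 8.09. The difference from NOD was again 0.35 ± 0.11, and that from Batf3ko was 0.16 ± 0.11 with overlapping mice.

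Cryba2 is a crystallin gene named from the lens and also known from endocrine cells. Among 8-week mice NOD ran from 8.29 (median 8.52) to 8.69, Batf3ko mice from 8.15 (median 8.39) to 8.48 and Rag1ko mice from 7.52 (median 8.01) to 8.18. The Rag1ko mice were below all NOD mice, and a single Batf3ko mouse at 8.15 fell within their range. The differences were -0.60 ± 0.09 and -0.43 ± 0.09, and with mice 1 to 3 of each group alone they were -0.83 and -0.60. The 6-week NOD mice gave 8.43, 8.43 and 8.41, Batf3ko mice 8.76, 8.59 and 8.51, and Rag1ko mice 8.12, 8.42 and 8.38. The differences were -0.12 ± 0.13 and -0.31 ± 0.13, and the Rag1ko mice overlapped with NOD.

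**Figure D3:**
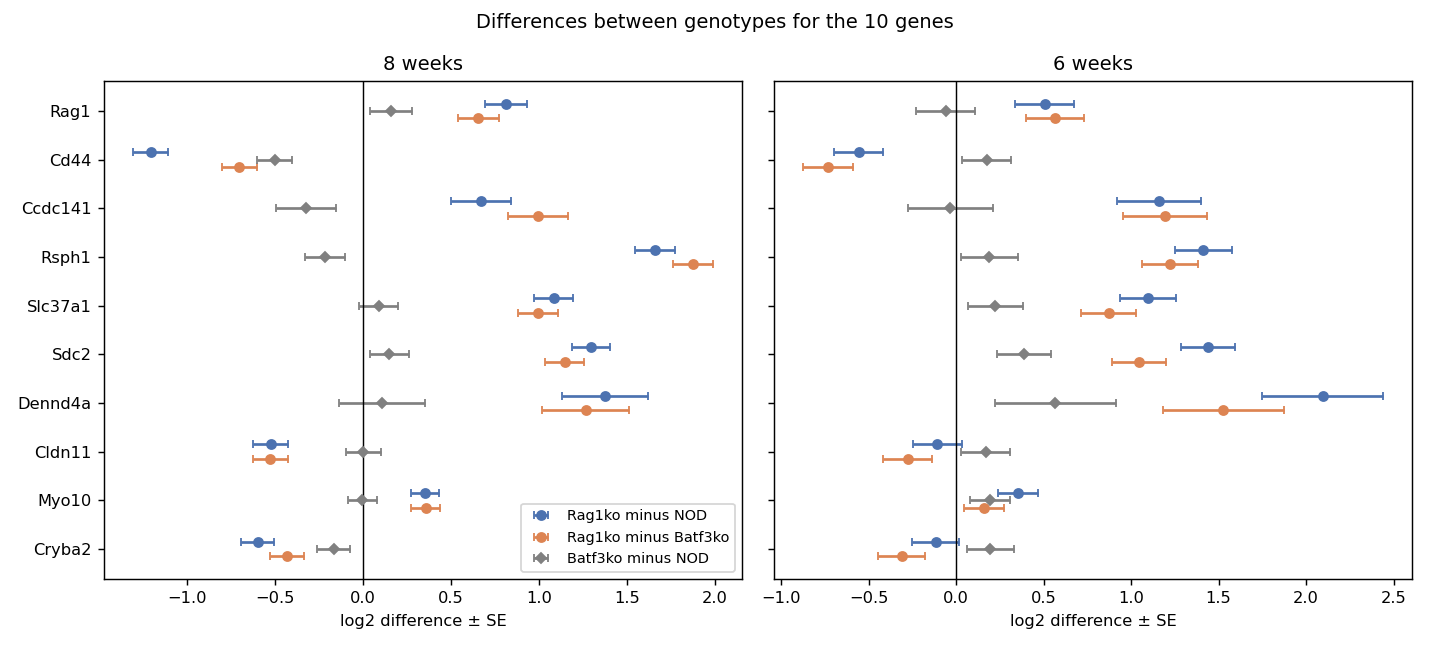
Log2 differences ± SE of the 10 genes at 8 weeks (left) and 6 weeks (right) for Rag1ko minus NOD (blue), Rag1ko minus Batf3ko (orange) and Batf3ko minus NOD (grey), from a fit of all 27 arrays. Blue and orange points lie on the same side of 0 for every gene, and the grey points lie near 0 at 8 weeks except that of Cd44 at -0.50.

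Batf3ko islets were compared with NOD islets. The choice of genes did not name this contrast, but it equals the difference of the 2 contrasts that were used and shares their NOD and Batf3ko mice, so its tests are not independent of the choice. At 8 weeks 1 of the 10 genes passed limma's test, Cd44, which was lower in Batf3ko by 0.50 ± 0.10 (adjusted p = 0.002, 6 mice a group), in a comparison in which 7.66% of all genes passed. Its mice did not overlap, as for 3.3% of all genes. The call was lost with mice 1 to 3 of each group alone (-0.41, adjusted p = 0.091). Of the other genes, Ccdc141 had the greatest difference, -0.32 ± 0.17 (limma adjusted p = 0.26), then Rsph1 with -0.22 ± 0.11 (0.25). At 6 weeks limma called 0 of the 10, where 0.973% of all genes passed, and 1 had an unadjusted p under 0.05. That gene was Sdc2, higher in Batf3ko by 0.39 ± 0.15 (limma adjusted p = 0.29) with no overlap between the mice, as for 16% of all genes in groups of 3. Dennd4a differed by 0.57 ± 0.35 there (limma adjusted p = 0.56).

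The Batf3ko effect on Cd44 differed between the ages. It was -0.50 at 8 weeks and 0.17 ± 0.14 at 6 weeks, and the difference of the effects was -0.68 ± 0.17 (limma interaction, adjusted p = 0.04, where 1.89% of all genes passed). Of the 10 genes 1 passed this test. Over 24 alternatives the adjusted p ran from 0.021 to 0.10 and the value from -0.74 to -0.58, and the call was lost in 13. Those were quantile normalization of the arrays, mice 1 to 3 alone, and leaving out NOD mouse 2 or 3 or Batf3ko mouse 1, 2 or 3 of 6 weeks, or NOD mouse 5 or 6 or Batf3ko mouse 1, 2, 5 or 6 of 8 weeks.

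Leukocyte markers also differed between NOD and the other genotypes at 8 weeks. The defining endocrine transcripts Ins2, Gcg and Sst were high in every group, with means from 12.52 to 13.44. Of 11 measured T cell markers 8 were lower in Rag1ko than in NOD and 9 lower in Batf3ko than in NOD, and none was called higher or lower between Rag1ko and Batf3ko. The mean log2 value of the T cell list ran from 4.12 to 6.13 in NOD, from 3.78 to 4.11 in Batf3ko and from 3.78 to 4.06 in Rag1ko mice. The list of 9 macrophage markers ran from 5.86 to 7.57, from 4.89 to 5.33 and from 5.25 to 5.49, with 8 markers lower in each knockout than in NOD and none called between the knockouts. Of the 7 B cell markers 3 were lower in each knockout than in NOD and none differed by the test between the knockouts. Between Rag1ko and Batf3ko limma thus called 0 of the T cell, B cell and macrophage markers, where 0.507% of all genes passed. Without adjustment 0 T cell, 1 B cell and 0 macrophage markers had a p under 0.05, beside 11% of all genes. At 6 weeks the T cell list ran from 4.51 to 4.55 in NOD, from 4.17 to 4.25 in Batf3ko and from 4.20 to 4.35 in Rag1ko mice, and limma called 0 of its 11 markers between any of the genotypes. The unadjusted p was under 0.05 for 1 of the 11 between Batf3ko and NOD and for 0 between Rag1ko and either genotype. The macrophage list stood higher in NOD at that age too, at 5.87 to 6.12, beside 5.31 to 5.61 in Batf3ko and 5.38 to 5.60 in Rag1ko mice. Of its 9 markers limma called 0 between any of the genotypes, with an unadjusted p under 0.05 for 4 between Rag1ko and NOD, 3 between Batf3ko and NOD and 0 between the knockouts. In whole islets fewer cells of a type and less RNA per cell cannot be told apart, and the part of leukocyte RNA in the Cd44 values was not tested beyond the values given.

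Within the 6 NOD mice of 8 weeks the mean of the T cell list varied with an SD of 0.81, beside 0.86 for the acinar and 0.80 for the B cell list, and each of the 10 genes was set against the T cell list. Cd44 had Pearson r = 0.63 (exact permutation p = 0.18, two-sided, adjusted over the 10 genes 0.36) and Spearman rho = 0.66 (exact p = 0.17, adjusted 0.44). Without the 2 mice farthest from the median score r was 0.93 over 4 mice. Ccdc141 went the other way, with r = -0.80 (exact permutation p = 0.053, adjusted 0.36), rho = -0.66 (exact p = 0.17, adjusted 0.44) and r = -0.93 without those 2 mice. So did Myo10 (r = -0.68), Dennd4a (-0.60), Cldn11 (-0.60), Sdc2 (-0.59), Rag1 (-0.47), Rsph1 (-0.32) and Cryba2 (-0.19). Slc37a1 had r = 0.25. The strongest Spearman rho was that of Dennd4a, -0.83 (exact permutation p = 0.058, adjusted 0.44). None of the 10 passed before or after adjustment, and 6 mice allow no exact p below 0.0028.

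Other marker lists also differed between groups. Immediate early and isolation stress genes, which respond within minutes to handling of tissue, had a mean log2 value of 8.12 to 8.90 in NOD, 8.35 to 9.11 in Batf3ko and 8.63 to 9.91 in Rag1ko mice at 8 weeks. There 7 of the 8 were higher in Rag1ko than in NOD and 2 higher than in Batf3ko. At 6 weeks the order was otherwise, with NOD mice at 10.59 to 10.73, Batf3ko mice at 8.37 to 9.48 and Rag1ko mice at 8.14 to 8.82. All 8 genes were lower than in NOD in Rag1ko and likewise in Batf3ko. Between the knockouts limma called 0 of them, where 0.351% of all genes passed. Acinar markers, the enzymes of the surrounding exocrine pancreas, ran from 7.91 to 10.19 in NOD, from 6.42 to 10.06 in Batf3ko and from 6.43 to 9.43 in Rag1ko mice at 8 weeks, with 1 of 11 lower in Rag1ko than in NOD by limma. Without adjustment 9 of the 11 had a p under 0.05 there (81.8%, beside 18.2% of all genes), with a list median of -1.38. Between the knockouts limma called none, and 0 had an unadjusted p under 0.05. Fibroblast and stellate cell markers had a mean of 5.65 in NOD, 4.92 in Batf3ko and 4.87 in Rag1ko mice at 8 weeks. Of these 8 markers 3 were lower in Rag1ko and 5 lower in Batf3ko than in NOD, and limma called 0 between the knockouts, where 0 had an unadjusted p under 0.05. The part of these lists in the values of the 10 genes was not tested.

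Genes close to an altered locus are inherited with it, so the neighbours of Rag1 were read as well. Among the 25 measured genes on each side of Rag1, 49 are not in the set. At 8 weeks limma called 2 of these 49 against NOD (4.08%, beside 4.07% of all genes), 0 against Batf3ko (0.507% of all genes) and 0 in both. Before adjustment 12 of the 49 had a p under 0.05 against NOD (24.5%, beside 18.2% of all genes) and 13 against Batf3ko (26.5%, beside 11% of all genes). The 2 called were Mir670, higher by 1.18 ± 0.30 (adjusted p = 0.022) with -0.04 ± 0.30 against Batf3ko, and Ext2, lower by 0.32 ± 0.09 (adjusted p = 0.043), both named after their values were seen. Against Batf3ko the largest difference of the 49 was 0.43, beside -0.70 for Cd44 and 0.66 for Rag1. At 6 weeks 1 of the 49 passed against NOD (3.87% of all genes) and 0 against Batf3ko (0.351%), where 3 had an unadjusted p under 0.05. The gene that passed was Pamr1, higher by 0.72 ± 0.20 (limma adjusted p = 0.037).

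Of the genes outside the set among the 10 nearest on either side, none passed in both comparisons. Over them the median size of the 8-week difference was 0.12 against NOD and 0.18 against Batf3ko, beside 0.11 and 0.09 over all genes. Rag2, the partner of Rag1 in the recombinase and its direct neighbour, differed by 0.16 ± 0.11 from NOD and 0.27 ± 0.11 from Batf3ko at 8 weeks (limma adjusted p = 0.44 and 0.32). Traf6, on the other side, differed by 0.12 ± 0.10 and 0.04 ± 0.10. Iftap, Lrrc4c, Api5, 2810002D19Rik, Prr5l, Commd9, Ldlrad3 and Trim44 lay between -0.10 and 0.26 against NOD and between -0.26 and 0.27 against Batf3ko, and none passed. The genes on either side of Cd44, Slc1a2 and Pdhx, differed by 0.04 ± 0.15 and -0.20 ± 0.11 from NOD and by -0.15 ± 0.15 and -0.30 ± 0.11 from Batf3ko. The 8-week count of 2 fell to 0 without NOD mouse 5 or without NOD mouse 6 and to 1 without NOD mouse 2 or without Rag1ko mouse 1, 2, 4 or 5.

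Around the pair on chromosome 17 no other gene within 3 places passed the test. Ubash3a, before Rsph1, differed by -0.00 ± 0.11 from NOD and 0.07 ± 0.11 from Batf3ko at 8 weeks, and Pde9a, after Slc37a1, by -0.00 ± 0.12 and -0.02 ± 0.12 (limma adjusted p from 0.88 to 1). Of the 42 measured genes outside the set that lie within 3 places of a member other than Rag1 and not within 25 of Rag1, limma called 1 against NOD, 0 against Batf3ko and 0 in both at 8 weeks, beside 4.07% and 0.507% of all genes. Unadjusted p was under 0.05 for 9 (21.4%, beside 18.2% of all genes) and 3 of them (7.14%, beside 11%). The called gene was Mir375, a microRNA of islet cells beside Cryba2, higher by 0.52 ± 0.12 (limma adjusted p = 0.014). At 6 weeks 3 of the 42 passed against NOD (3.87% of all genes) and 0 against Batf3ko, where 3 had an unadjusted limma p under 0.05. Zfp622, beside Myo10, was lower by 0.82 ± 0.12 (limma adjusted p = 8.9e-05), Ihh, a hedgehog ligand near Cryba2, lower by 0.49 ± 0.10 (0.0038), and Rab11a, a Rab protein beside Dennd4a, higher by 0.31 ± 0.09 (0.05 after rounding). These 4 genes were named after their values were seen.

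**Figure D4:**
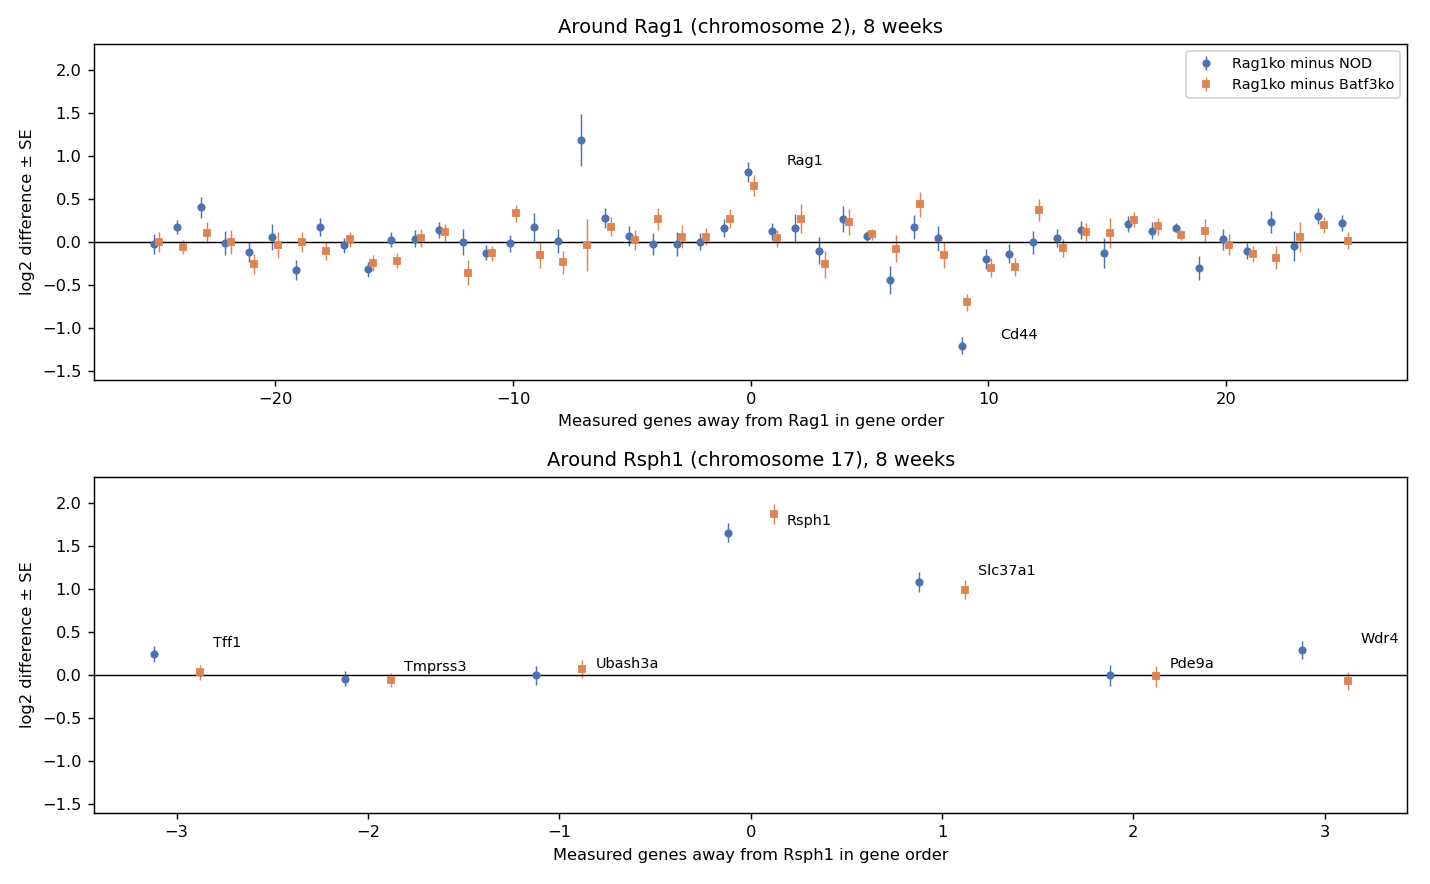
Log2 difference ± SE at 8 weeks (vertical axis, 6 mice a group) of the measured genes by their place in gene order (horizontal axis), within 25 places of Rag1 (top) and 3 places of Rsph1 (bottom), for Rag1ko minus NOD (blue circles) and Rag1ko minus Batf3ko (orange squares). Rag1, Cd44, Rsph1 and Slc37a1 stand away from 0 in both colours, while Mir670, at -7 in the top panel, does so against NOD alone.

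Rsph1 and Slc37a1 were high in the same genotype but among the mice of 8 weeks varied against each other from mouse to mouse. After the mean of each group was removed, the 18 mice of 8 weeks gave Pearson r = -0.61 (two-sided permutation p = 0.0066 with 100000 resamples within groups, adjusted over 2 pairs 0.013) and Spearman rho = -0.67 (permutation p = 0.0029). Without the 2 mice farthest from the median r was -0.58. Within the groups r was -0.70 in NOD, -0.75 in Batf3ko and -0.51 in Rag1ko mice, so the sign was the same in each. The 9 mice of 6 weeks did not show this, with r = 0.22 (exact permutation p = 0.55 within groups, two-sided, adjusted over 2 pairs 0.96), rho = 0.08 (exact p = 0.83) and r = -0.51 without the 2 farthest, and the sign was negative in NOD and positive in Batf3ko and Rag1ko mice. For Rag1 with Cd44 at 8 weeks the same measure gave r = -0.14 (permutation p = 0.60, adjusted 0.60) and rho = -0.10 (permutation p = 0.69), and -0.08 without 2 mice, with signs that differed between genotypes, and at 6 weeks r was 0.0096 (exact permutation p = 0.96), rho -0.05 (exact p = 0.94) and r 0.05 without 2 mice.

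**Figure D5:**
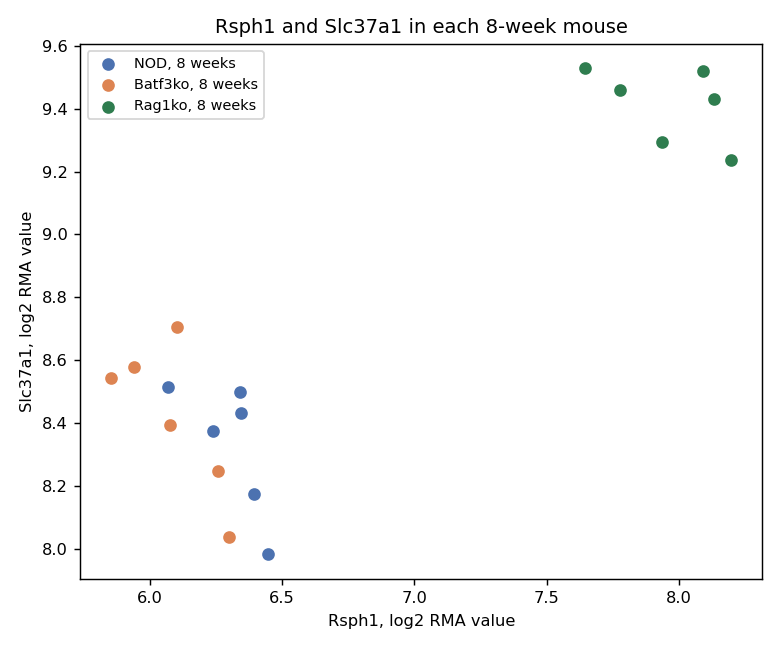
Log2 value of Slc37a1 (vertical axis) against that of Rsph1 (horizontal axis) in each 8-week mouse, 6 each of NOD, Batf3ko and Rag1ko. Rag1ko mice form a separate cloud at high values of both genes, and within each genotype the points slope downwards. The axes do not start at 0.

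Over all 18 mice of 8 weeks, group differences included, the genes most like some of the members by Pearson r are given as a description. These r values contain the differences by which the set was chosen, and the arrays share one normalization. Rbm3, a cold-induced RNA-binding protein, was first for Cd44 (0.91), Irs2, an adaptor of the insulin receptor, for Slc37a1 (0.84), Mia3 for Ccdc141 (0.87), Disp2 for Dennd4a (0.84), Snu13 for Cldn11 (0.86), Canx for Myo10 (0.86), Vmn1r28 for Rag1 (0.86) and the vault RNA Vaultrc5 for Cryba2 (0.88). Within the set the closest pair was Rsph1 with Sdc2 at 0.93.

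The choice of the set states no numerical limit, and 20 other genes passed the test in both Rag1ko comparisons at 8 weeks in one direction. Among them 9 kept their direction at 6 weeks against both genotypes, whereas all 10 genes of the set did, Cldn11 and Cryba2 by less than their SE against NOD. The weakest of the set, Myo10, had 0.35 as the smaller of its 2 differences, and the strongest, Rsph1, 1.66. Among the others, Junb, an immediate early gene, was higher in Rag1ko than NOD by 0.88 at 8 weeks and lower by 1.61 at 6 weeks. Passing in both comparisons at both ages held for 0.0451% of all genes (9 genes), 6 of the set and 3 others. Of these 3, one was higher in all 4 comparisons, and Dbp and Hlf, transcription factors with a daily rhythm, were lower in all 4, at 8 weeks by 0.62 and 0.89 and by 0.48 and 0.72. Since the set and its rivals were picked on these values, the counts are a description.

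For 9 lists of genes of the same families or pathways as the set, the other 137 measured genes were read. At 8 weeks 9 of these 137 passed against NOD, 2 higher and 7 lower, 0 against Batf3ko and 0 in both by limma, beside 4.07% and 0.507% of all genes. The unadjusted p was under 0.05 for 29 (21.2%, beside 18.2% of all genes) and 15 (10.9%, beside 11%). Among the 14 other genes of hyaluronan binding and Cd44 partners 3 passed against NOD, all lower. They were Itga4, an integrin chain of leukocytes (-0.96 ± 0.24, limma adjusted p = 0.018), Msn, a linker of membrane and actin (-0.92 ± 0.18, 0.0025), and Mmp14, a membrane protease (-0.86 ± 0.19, 0.0074). Against Batf3ko the same genes lay at -0.30, 0.04 and -0.07. The list median was -0.01 against NOD, beside 0.03 over all genes.

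Of the 10 other genes of V(D)J recombination none passed, with an unadjusted limma p under 0.05 for 2 against NOD and 3 against Batf3ko, and Hmgb2, a chromatin protein that assists the recombinase, had the greatest difference (-0.59 ± 0.19 from NOD, limma adjusted p = 0.076). Of 25 other genes of the motile cilium 1 passed against NOD, Pifo, higher by 0.26 ± 0.07 (limma adjusted p = 0.042). The list median was 0.14 against NOD and -0.02 against Batf3ko, and Rsph1 itself differed by 1.66 and 1.88. The cilium genes Drc1 and Ccdc39 differed by 0.30 ± 0.18 and 0.29 ± 0.11 from NOD (limma adjusted p = 0.40 and 0.14). Of 13 other genes of syndecans, glypicans and heparan sulfate synthesis 1 passed, Ext2, given above, and Gpc3 differed by -0.34 ± 0.16 (limma adjusted p = 0.25).

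Of 10 other genes that handle glucose 6-phosphate none passed, and 1 had an unadjusted p under 0.05 against NOD and 1 against Batf3ko. Hk1, a hexokinase, differed by -0.25 ± 0.09 from NOD (limma adjusted p = 0.14) and Slc37a3, of the same carrier family as Slc37a1, by 0.12 ± 0.11 (0.62). Of 17 other unconventional myosins 2 passed against NOD, Myo1f (-1.11 ± 0.21, limma adjusted p = 0.0022) and Myo1g (-0.67 ± 0.16, 0.015), both myosins of leukocytes, and against Batf3ko they lay at 0.31 and 0.02. Of 15 other DENN domain and Rab10 genes 2 passed against NOD. Dennd4c, the closest relative of Dennd4a named here, was higher by 0.40 ± 0.11 (limma adjusted p = 0.039), and Dennd2d was lower by 0.32 ± 0.09 (0.035). Against Batf3ko these 2 genes lay at 0.02 and 0.07. Of 19 other claudins and tight junction genes and 14 other crystallins none passed at 8 weeks. Unadjusted, 5 claudin and junction genes and 2 crystallins had a limma p under 0.05 against NOD and 3 and 2 against Batf3ko. Cldn1 and Cldn6 differed by -0.33 ± 0.15 and -0.32 ± 0.11 from NOD (limma adjusted p = 0.24 and 0.11), and Cryab and Crym by -0.34 ± 0.17 and 0.34 ± 0.12 (0.29 and 0.11). At 6 weeks 1 of the 137 passed, Crybb3, lower than in NOD by 0.72 ± 0.15 (limma adjusted p = 0.006). In each list the member of the set was the only gene that passed in both Rag1ko comparisons at 8 weeks, and the members were chosen on these differences.

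Between the ages the 10 genes were set against the shift of all genes, since the arrays of 6 and 8 weeks follow different distributions (array medians 5.29 to 5.34 and 4.92 to 5.05) and the acinar list fell from 12.62 to 12.92 at 6 weeks to 6.42 to 10.19 at 8 weeks. The median gene was lower at 8 weeks by 0.27 in NOD, 0.25 in Batf3ko and 0.25 in Rag1ko. Of the 10 genes limma called 3 lower in NOD (46.6% of all genes called lower), 6 lower in Batf3ko (41.8%) and 6 lower in Rag1ko (43%), and none higher. The age contrasts share their mice with the contrasts used for the choice. All age tests of the 10 genes, here and below, are thus not independent of it. With each array centred on its median the calls were 5 higher and 0 lower in NOD, 0 and 1 in Batf3ko and 2 and 1 in Rag1ko, and after quantile normalization 2 and 1, 0 and 2, and 2 and 1. Without NOD mouse 2 or mouse 3 of 8 weeks 5 were called in NOD, and without Rag1ko mouse 2 of 6 weeks 3 in Rag1ko.

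Ccdc141 was the gene with the greatest fall with age in every genotype, -0.82 ± 0.21 in NOD (limma adjusted p = 0.0017), -1.11 ± 0.21 in Batf3ko (0.00011) and -1.31 ± 0.21 in Rag1ko (1.3e-05). After quantile normalization these were -0.52 (adjusted p = 0.055), -0.80 (0.0055) and -1.06 (0.00042), so the call in NOD was lost, as it was after centring (-0.48, limma adjusted p = 0.063). Rsph1 did not share the general shift in NOD (0.02 ± 0.14) or in Rag1ko (0.26 ± 0.14, limma adjusted p = 0.12). In Rag1ko it was higher at 8 weeks after centring (0.63, limma adjusted p = 0.0011) and after quantile normalization (0.44, limma adjusted p = 0.021). Rsph1 was chosen for its values in Rag1ko mice, so these tests add no separate support. Cd44 was higher at 8 weeks in NOD after centring (0.62, limma adjusted p = 0.00018) and after quantile normalization (0.41, 0.011), while the uncentred value was 0.28 ± 0.12 (limma adjusted p = 0.051). Age, normalization and exocrine content cannot be told apart in these comparisons.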

How the data were processed

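RNA of islets from 27 mice was labelled with biotin and hybridised to whole-transcript arrays, per the labels' protocols. The deposited values are log2 values that the authors normalized with RMA in Arraystar, per the series text. The submitters' processing notes also name Affymetrix Expression Console and mm9 without a role, and the sources used here give no versions. The deposited table has 30177 probe sets, with log2 values from 0.70 to 13.85 and no measure of background. No further normalization was applied.

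Probe sets with 1 gene symbol (21789) were used, and the one with the highest mean was kept per gene, which left 19938 genes. RefSeq (GRCm38.p6) gave names, chromosomes, gene order and promoter windows. limma 3.58.1 in R 4.3.3 was fitted to all genes with 1 mean per genotype and age (21 residual and 5.524 prior degrees of freedom), and p-values were adjusted by Benjamini-Hochberg over all genes of a contrast at 0.05. In data simulated for Batf3ko against NOD at 8 weeks over the 19938 genes, 195 of 200 genes changed by log2 1 were recovered (97.5%) and 14 others were called. Smaller changes and the 6-week contrasts were not simulated, so the share gives no recovery rate for them.

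The members, lists and tests were chosen with earlier results of these data known. Genes named beside the 10 follow a written rule (the 5 nearest on each side of Rag1, those beside Rsph1 and Slc37a1, the 2 greatest differences of each list and list genes that passed, and the gene most like each member), and exceptions are said to be such. Results on 1 gene that the rule names are not reported here, nor are genes that ranked lower in likeness. The mice are biological replicates per the series text, and the labels name no batch. Alternatives were a filter on values under 5.1, the mean of probe sets, fewer groups in the fit, a replicate block, median centring, quantile normalization, trended robust moderation, each mouse left out, mice 1 to 3 alone and other widths around Rag1. The 6-week correlation was added after seeing the data.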

Additional observations from a re-analysis of the deposited data

Results flagged for a closer look

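In 2 of the 30 sets of 6 mice read for the 10 genes at 8 weeks 1 mouse stood apart from the others, and chance alone marks about 1 in 20 such sets. NOD mouse 3 had a Cldn11 value of 5.54, with the next mouse at 5.05 and a gap of 0.71 of the range of the group. Batf3ko mouse 6 had a Cryba2 value of 8.15, with the next at 8.37 and a gap of 0.66 of the range. The Batf3ko effect on Cd44 differed between the ages by -0.68 (8 minus 6 weeks, limma adjusted p = 0.04), a call lost in 13 of 24 alternatives.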

How the results depend on the processing

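The Rag1ko differences of the 10 genes kept their sign under every alternative run, among them the 120 values against NOD and 120 against Batf3ko with 1 mouse of 8 weeks left out, which moved by less than the spread between mice. Larger moves were those of Cryba2, Rag1 and, with the mean of its probe sets, Ccdc141 (0.80 against NOD at 6 weeks). With mice 1 to 3 alone 0 genes of the set were called between Batf3ko and NOD at 8 weeks (main value 1) and 0 near Rag1 against NOD (main value 2). The count near Rag1 was 1 with the arrays of the same age, 1 with only the 2 groups, 1 with 10 genes on each side and 4 with 50, and ran from 0 to 2 with 1 mouse left out. Of the age comparisons, centring gave 5 calls in NOD, 1 in Batf3ko and 3 in Rag1ko, and quantile normalization gave 2 in Batf3ko and 3 in Rag1ko. With 1 mouse left out the calls ran from 2 to 5 in NOD and from 3 to 7 in Rag1ko. The cause of these changes was not tested.

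With the replicate number as a block the count near Rag1 against NOD was 1, and the block changed no other call of the set within an age (the differences between ages were not run with it). The numbers do not pair the mice: deviations of same-numbered mice had correlations of -0.21 to 0.25 at 6 weeks and -0.10 to 0.07 at 8 weeks. The number of arrays limits the 6-week values most, and the Rag1 signal is too low to be read beside a background, which the deposited values do not give.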
